A study of Homo sapiens with 12 samples.

Results

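The interaction of YAP/TAZ loss with Sorafenib was measured in HLE cells, an established human hepatocellular carcinoma line, as the Sorafenib effect in cells without YAP/TAZ minus the Sorafenib effect in control cells. For every gene this was (siY/T Sorafenib minus siY/T DMSO) minus (siCtrl Sorafenib minus siCtrl DMSO) on log2(CPM + 0.5), where CPM gives a gene's share of every 1000000 gene-assigned reads. It rested on 8 of the 12 libraries of the series, 2 in each of 4 groups. These were cells transfected with a control siRNA (labelled siCtr, here siCtrl) and cultured with the vehicle DMSO, the same cells with 5 µM Sorafenib (labelled SRF), cells transfected with siRNAs against YAP and TAZ (labelled siY_T, here siY/T) with DMSO, and siY/T cells with 5 µM Sorafenib. The other 4 libraries, from cells transfected with an siRNA against ATF4 (siATF4) with DMSO or Sorafenib, shared the estimate of the spread and served one comparison. The labels name no genetic change other than the siRNA, a transient knockdown that leaves part of the target. They also give no time in Sorafenib, while the methods of the paper give another dose. Of 26258 identifiers listed, 13515 reached 1 CPM in 2 or more of the 12 libraries and were tested. In its second highest library, the gene nearest above that limit had 1.00 CPM (*MIR4775*) and the one nearest below it had 0.999 CPM (*LINC00115*).

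YAP and TAZ are transcriptional co-activators of the Hippo pathway, a kinase cascade that keeps them out of the nucleus when cells are dense. They bind no DNA themselves and act through TEAD factors, often together with AP-1, at genes of growth, matrix and cytoskeleton. Sorafenib is an inhibitor of RAF and receptor tyrosine kinases that also blocks cystine uptake by system xc-, whose transport subunit is SLC7A11, and it can cause ferroptosis, a death by lipid peroxidation. Amino acid shortage and other stresses lead to phosphorylation of eIF2 and to translation of ATF4, a bZIP factor that binds C/EBP-ATF response elements as a partner of C/EBP proteins and raises genes of amino acid supply and of the stress response. The comparison asked which genes that Sorafenib raised or lowered did so only, or to a different extent, when YAP and TAZ were present.

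The libraries held 41408348 to 53619732 reads on genes, and a single read was worth 0.0186 to 0.0241 CPM. The pair of siY/T DMSO libraries stood apart, since the SD of their log2 difference over genes was 0.190, against 0.110 to 0.132 in the other 5 groups, and the main counts and those of gene lists that moved are given without each of them. Leaving out either library also takes the spread of this pair out of the estimate that all groups share. Counts can rise for that reason, so these recounts cannot show that a result is robust to the pair. The paper calls its replicates biological, but the labels do not say that 2 libraries of a group came from separate cultures. The p-values measure the spread between these libraries, which may be technical. The knockdown was present with and without the drug. *YAP1* (Entrez 10413), which encodes YAP, had 277 and 279.9 CPM in siCtrl DMSO, 275 and 259 in siCtrl Sorafenib, 46.6 and 57.7 in siY/T DMSO and 48.7 and 47.0 in siY/T Sorafenib cells. *WWTR1*, which encodes TAZ, was lowered less. It had 170 and 173 CPM in siCtrl DMSO, 154 and 145 in siCtrl Sorafenib, 53.3 and 68.6 in siY/T DMSO and 49.3 and 54.5 in siY/T Sorafenib cells. In DMSO, siY/T minus siCtrl was -2.41 for *YAP1* and -1.50 for *WWTR1* on the log2 scale. The words without YAP/TAZ thus mean siY/T cells, which kept part of both mRNAs. The difference of the Sorafenib effects was -0.053 (95% interval -0.29 to 0.18) for *YAP1* and -0.024 (-0.29 to 0.25) for *WWTR1*, neither past the test. Of the 9 hepatocyte markers looked at, 7 stayed under 1 CPM in all 8 libraries, among them *ALB*, *HNF4A* and *APOB*, which was at 0, while *FGB* was abundant. Endothelial markers were under 1 CPM in every library, and of 6 blood cell markers only *CD68* passed that level. A smaller number of responding cells and less RNA per cell cannot be told apart in such bulk libraries.

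The promoter stretches that the ATF4-linked, interferon-linked and YAP/TAZ-linked results below refer back to are shown here, read 5′ to 3′ along the gene from RefSeq promoters (250 bases before to 50 after the start site, GRCh38.p14) and placed on GRCh37 by exact match, where each matched once. In the first 4, capitals mark TGATGNAA, or the same letters on the other strand, a form of the C/EBP-ATF response element. In *CCN2* they mark GGAATG, the core of the TEAD element, and in *IFIT1* they mark TTTC, any 2 bases and TTTC again, a form of the interferon-stimulated response element.
ATF3: aaggtcaggaTGATGGAAggctgtcata
CHAC1: tcccctgccgTTGCATCActcctgccag
CEBPG: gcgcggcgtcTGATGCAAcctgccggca
AARS1: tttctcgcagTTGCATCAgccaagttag
CCN2: gtggggaGGAATGcgaGGAATGtccctgt
IFIT1: tagTTTCACTTTCcccTTTCGGTTTCcct
They lie at chr1:212738548-212738575 (plus strand, *ATF3*), chr15:41245450-41245477 (plus, *CHAC1*), chr19:33864967-33864994 (plus, *CEBPG*), chr16:70323579-70323606 (minus, *AARS1*), chr6:132272595-132272623 (minus, *CCN2*) and chr10:91152261-91152289 (plus, *IFIT1*). The first capital lies 191, 209, 42, 187, 104 and 116 bases before the RefSeq start site in that order. By GENCODE on GRCh37 the *ATF3* stretch lies between genes and the *CEBPG* stretch in an intron of *CEBPG*. The *CHAC1* and *AARS1* stretches overlap an exon of their gene, the latter also one of *DDX19B*, and those of *CCN2* and *IFIT1* lie in introns of *LINC01013* and *LIPA*. Both strands of all 10711 tested genes with a RefSeq promoter were searched for these letters, chosen after the values were seen. TGATGNAA was in 2.74% of these promoters and in 2.70% of the 592 promoters of Sorafenib-raised genes with a weaker rise in siY/T cells (described below). GGAATG was in 15.0% of both sets. A match is a description of letters and not of binding.

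The Sorafenib effect was lower without YAP/TAZ for 1923 of the 13515 genes and higher for 1055 (adjusted p under 0.05, limma with Benjamini-Hochberg adjustment), which are 14.2% and 7.81% of the genes tested. The gene nearest inside that threshold was *TOR2A* (adjusted p = 0.04997 by limma) and the nearest outside *C1QL4* (adjusted p = 0.05002 by limma). Most differences were moderate, with a median of -0.43 over the lower and 0.35 over the higher genes, against -0.022 over all genes tested. A difference of at least 0.58 was reached by 559 of the lower and 111 of the higher genes. The counts moved with the libraries. Without siCtrl DMSO replicate 2 the genes were 1135 and 446, without siCtrl Sorafenib replicate 2 they were 1148 and 475, and without siY/T DMSO replicate 2, one of the pair that stood apart, they were 2405 and 2170 (without replicate 1 the higher genes were 1315). The higher genes alone were 620 without siCtrl DMSO replicate 1 and 614 without siY/T Sorafenib replicate 1. edgeR on the recovered reads called 1826 of the 1923 and 1004 of the 1055 genes in the same direction.

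**Figure D1:**
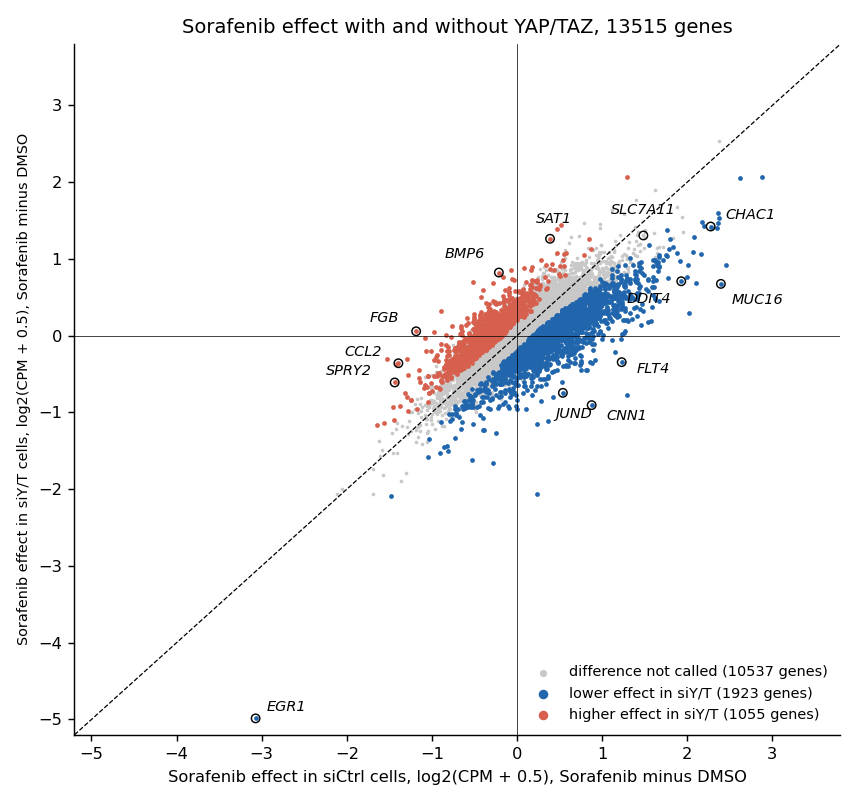
Sorafenib effect (Sorafenib minus DMSO, log2(CPM + 0.5)) of 13515 genes in siCtrl cells on the horizontal axis and in siY/T cells on the vertical axis, each point 1 gene, with genes of equal effect on the dashed line. Blue marks the 1923 genes with a lower and red the 1055 genes with a higher effect in siY/T cells, and *CNN1* at the lower right has effects of 0.88 and -0.91.

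In siCtrl cells Sorafenib raised 1665 genes (12.3% of those tested) and lowered 696 (5.15%), called where the unadjusted P was under 0.05 and the log2 change was 0.58 or more in size. In siY/T cells it raised 788 (5.83%) and lowered 560 (4.14%). Of the 1665 genes raised in siCtrl cells, 775 rose less without YAP/TAZ or did not rise at all, 4 rose more and for 886 the difference was not called. Of the 696 genes lowered in siCtrl cells, 208 fell less in siY/T cells, 31 fell more and for 457 the difference was not called. Without siY/T DMSO replicate 1 or 2 the 775 were 816 and 796, and the 208 were 239 and 254. The count of 208 was 120 without siCtrl DMSO replicate 2 and 137 without siCtrl Sorafenib replicate 2. The Sorafenib effect in siCtrl cells enters the difference itself, so these counts describe the genes and carry no test of their own. When raised genes were picked in siCtrl replicate 1 alone and measured in the replicate 2 libraries, which did not choose them, 1685 genes had a median Sorafenib effect of 0.77 in siCtrl and 0.48 in siY/T cells. Picked in replicate 2 and measured in replicate 1, 1693 genes had medians of 0.76 and 0.43. For lowered genes the same exchange gave medians of -0.72 and -0.63 over 712 genes, and of -0.71 and -0.52 over 729 genes. The median difference in the replicate that had not chosen the genes was -0.32 and -0.35 for raised and 0.10 and 0.21 for lowered genes, against -0.028 and -0.021 over all genes.

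Among the 775 raised genes with a weaker rise, 649 were no longer called in siY/T cells, 124 still rose and 2 fell. *CNN1* (Entrez 1264, chromosome 19 from 11649582 to 11661138 of GRCh37), calponin 1, an actin-binding protein of smooth muscle and myofibroblasts, was one of the latter 2, the other being *DUSP8*, named after its values were seen. *CNN1* had 18.7 and 19.5 CPM in siCtrl cells with DMSO and 34.3 and 36.7 in siCtrl Sorafenib, but 25.9 and 23.7 in siY/T DMSO and 13.0 and 13.0 in siY/T Sorafenib cells. The drug thus raised it with YAP/TAZ and lowered it without them, and no library of one group overlapped those of another. The difference was -1.78 (standard error 0.105, adjusted p = 1.74e-06 by limma). *FLT4* (Entrez 2324, chromosome 5 from 180028506 to 180076624 of GRCh37), the VEGF-C receptor VEGFR3, went from 13.4 and 13.5 to 31.7 and 32.8 CPM in siCtrl cells and had 9.01 and 9.30 and then 7.38 and 6.83 CPM in siY/T cells. Its rise of 1.23 in siCtrl cells stood against -0.35 without YAP/TAZ, a difference of -1.58 (adjusted p = 1.74e-06 by limma). *OLFML2A*, a secreted olfactomedin-like protein, rose from 39.2 and 41.5 to 119 and 123 CPM in siCtrl cells and had 78.6 and 74.2 CPM with DMSO and 92.7 and 82.4 with Sorafenib in siY/T cells, which began higher and ended lower than siCtrl cells (difference -1.38). *ABLIM3*, another actin-binding protein, had 9.70 and 9.32 CPM with DMSO and 18.02 and 16.4 with Sorafenib in siCtrl and 18.02 and 18.1 CPM with DMSO and 13.2 and 13.0 with Sorafenib in siY/T cells.

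**Figure D2:**
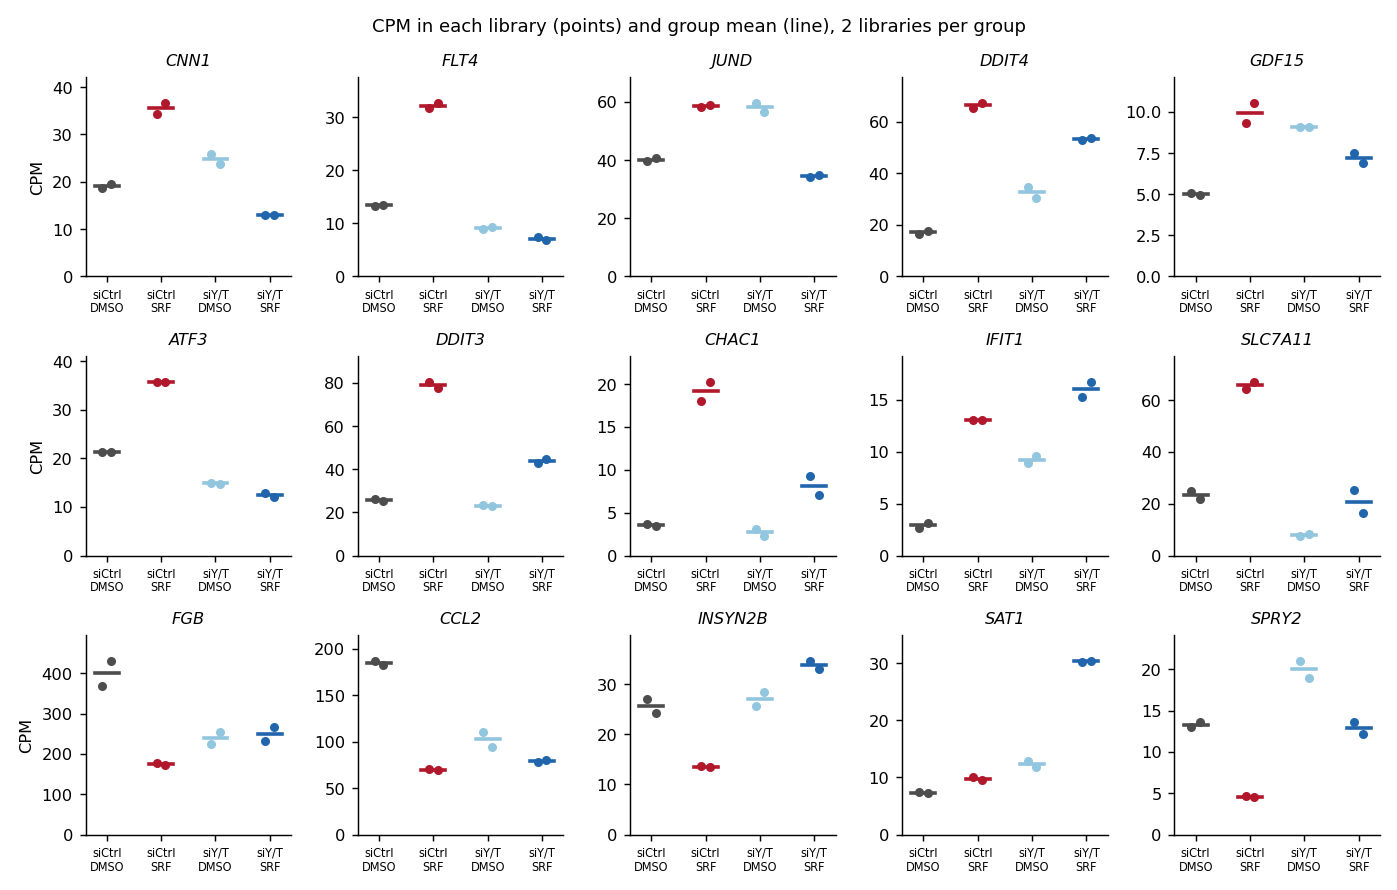
CPM on the vertical axis of each panel, from 0, for 15 genes in the 8 libraries, with each point 1 library and each line the mean of 2. In *CNN1* and *JUND* the step from DMSO to Sorafenib points up in siCtrl and down in siY/T cells, while in *SLC7A11* it points up in both, from a lower start in siY/T cells.

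The levels in siY/T cells set apart 2 forms of a weaker rise, which did not cover all 775 genes. For 440 of the 775 genes siY/T had already raised the level in DMSO (background 11.0% of genes tested), and for 344 of these the siY/T and siCtrl levels did not differ by the thresholds once Sorafenib was present. For 91 genes the level under Sorafenib was lower in siY/T than in siCtrl cells (background 3.84%), for 79 of them with no call in DMSO. Only 1 gene, *PDE6G*, named after its values were seen, was in both sets and 245 were in neither. The difference that picked the 775 genes is made of these same siY/T and siCtrl levels. Shares above the background are therefore partly set by the choice and carry no test. Leaving out siY/T DMSO replicate 1 or 2 gave 460 and 450 genes of the first form and 88 and 89 of the second. Quantile normalization gave 238 and 72. *HCFC1R1*, a regulator of the transcription co-factor HCF-1, was of the first form, with 59.8 and 59.4 CPM with DMSO and 134 and 137 with Sorafenib in siCtrl and 139.7 and 135 CPM with DMSO and 173 and 181 with Sorafenib in siY/T cells. *TGFB1I1*, the focal adhesion protein Hic-5, had 83.1 and 80.3 CPM with DMSO and 133 and 138 with Sorafenib in siCtrl and 152 and 139 CPM with DMSO and 132 and 128 with Sorafenib in siY/T cells. Its siY/T DMSO libraries thus lay above both siCtrl Sorafenib libraries. *MUC16*, the mucin that carries the CA125 antigen, was far higher in siY/T cells throughout, with 17.1 and 29.5 CPM with DMSO and 106 and 137 with Sorafenib in siCtrl and 179 and 291 CPM with DMSO and 383 and 348 with Sorafenib in siY/T cells. On the log2 scale its rise was 2.40 and 0.67. *SYNC*, the intermediate filament protein syncoilin, was of the second form, with like levels in DMSO (46.3 and 48.6 against 51.7 and 52.8 CPM) and 105 and 103 against 65.6 and 68.0 CPM under Sorafenib.

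**Figure D3:**
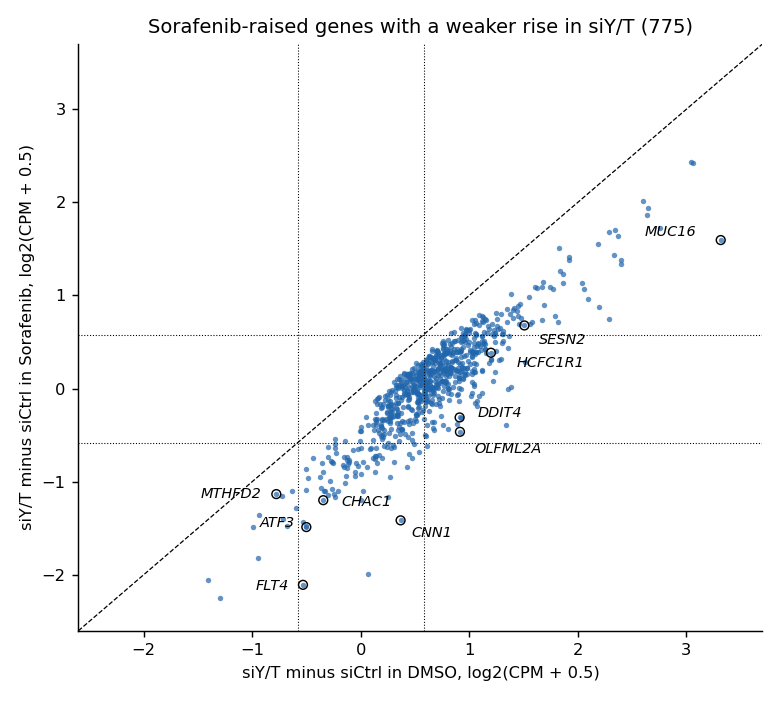
For the 775 Sorafenib-raised genes with a weaker rise in siY/T cells, siY/T minus siCtrl in DMSO on the horizontal and in Sorafenib on the vertical axis (both log2(CPM + 0.5)), with dotted lines at 0.58 either side of 0 and equality on the dashed line. Genes right of the right dotted line, such as *MUC16* and *SESN2*, were higher in siY/T cells before the drug, and genes below the lower dotted line, such as *FLT4*, *CNN1* and *CHAC1*, were lower in siY/T cells with it.

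Of 12 genes in a list of ATF4 and the factors around it, all tested, 8 had a lower Sorafenib effect without YAP/TAZ and 1 a higher one, against 14.2% and 7.81% of all genes, with a median difference of -0.47. Sorafenib raised 9 of the 12 in siCtrl and 7 in siY/T cells, against 12.3% and 5.83% of all genes. The mRNA of *ATF4* itself (Entrez 468, chromosome 22 from 39915700 to 39918688 of GRCh37) had 248 and 249 CPM in siCtrl DMSO, 484 and 492 in siCtrl Sorafenib, 207 and 197 in siY/T DMSO and 317 and 314 in siY/T Sorafenib cells. It thus rose in both, by 0.97 and 0.64, and the difference of -0.33 was smaller than that of most called members (standard error 0.0626, adjusted p = 0.0035 by limma). *ATF3*, a stress-induced repressor of the same bZIP family whose promoter is shown above, had 21.3 and 21.2 CPM in siCtrl cells with DMSO and 35.8 and 35.8 in siCtrl Sorafenib against 15.0 and 14.8 with DMSO and 12.9 and 12.02 with Sorafenib in siY/T cells. Its rise was absent without YAP/TAZ, where the effect was -0.25, and the difference was -0.99 (adjusted p = 3.56e-05 by limma). *DDIT3*, which encodes the pro-apoptotic factor CHOP, rose from 26.2 and 25.3 to 80.6 and 77.6 CPM in siCtrl and from 23.4 and 22.8 to 42.9 and 44.9 CPM in siY/T cells (difference -0.69). *CEBPG*, a C/EBP partner of ATF4, rose by 0.84 in siCtrl cells and had an effect of 0.33 in siY/T cells. The member that went the other way was *ATF5*, lowered in siCtrl cells from 55.4 and 52.6 to 30.8 and 30.8 CPM and at 37.3 and 34.5 CPM with DMSO and 29.4 and 27.3 with Sorafenib in siY/T cells. The other called members, outside the naming rule, were *NUPR1*, *TRIB3*, *CEBPB* and *FOXO3*, all lower.

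Secreted stress factors and brakes on mTORC1, many of them ATF4 targets, formed the list with the largest median difference, -0.85 over 9 tested of 11. Of these, 7 had a lower Sorafenib effect without YAP/TAZ and 0 a higher one, by limma as by edgeR and DESeq2 (background 14.2% and 7.81%). *DDIT4*, also known as REDD1, which restrains mTORC1, rose from 16.5 and 17.6 to 65.4 and 67.3 CPM in siCtrl and from 34.8 and 30.3 to 53.1 and 53.8 CPM in siY/T cells, a difference of -1.22 (standard error 0.113, adjusted p = 4.92e-05 by limma). *SESN2*, sestrin 2, a leucine sensor upstream of mTORC1, rose from 9.21 and 9.90 to 23.2 and 23.1 CPM in siCtrl cells and was already 28.6 and 27.6 CPM in siY/T DMSO cells, reaching 35.9 and 38.9 CPM. The siY/T levels of both were thus higher than those of siCtrl cells before the drug, and with it that of *SESN2* still was while that of *DDIT4* was not. *GDF15*, a secreted stress hormone of the TGF-β superfamily, had 5.05 and 4.97 CPM with DMSO and 9.35 and 10.6 with Sorafenib in siCtrl and 9.09 and 9.10 CPM with DMSO and 7.53 and 6.92 with Sorafenib in siY/T cells, a rise of 0.92 against an effect of -0.31. *VEGFA*, the endothelial growth factor, had effects of 0.50 and -0.22 (difference -0.72). *CHAC1* (Entrez 79094, chromosome 15 from 41245160 to 41248710 of GRCh37), which degrades glutathione, had 3.71 and 3.40 CPM in siCtrl DMSO, 18.004 and 20.3 in siCtrl Sorafenib, 3.14 and 2.29 in siY/T DMSO and 9.22 and 7.01 in siY/T Sorafenib cells. No siY/T effect was called in DMSO (-0.34), and it rose in both, by 2.28 and 1.42, with a difference of -0.85 (standard error 0.194, adjusted p = 0.0083 by limma).

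*SLC7A11* (Entrez 23657, chromosome 4 from 139085251 to 139163503 of GRCh37), the cystine transporter, had 24.7 and 21.7 CPM in siCtrl cells with DMSO and 64.5 and 67.1 in siCtrl Sorafenib cells, against 7.67 and 8.16 CPM with DMSO and 25.3 and 16.2 with Sorafenib in siY/T cells. All siY/T libraries with DMSO lay below all siCtrl libraries, and one siY/T Sorafenib library lay above and one below the siCtrl DMSO levels. The rise on the log2 scale was 1.48 in siCtrl and 1.31 in siY/T cells, called in both. The difference of -0.18 was not called (95% interval -0.62 to 0.26, adjusted p = 0.55 by limma), so a loss or a gain of response within that interval was not detectable with these libraries. The value turned on the siY/T Sorafenib libraries, since it was -0.49 and called without replicate 1 (adjusted p = 0.021 by limma) and 0.13 and not called without replicate 2. The level of *SLC7A11* was lower in siY/T than in siCtrl cells, by log2 differences of -1.49 in DMSO and -1.67 in Sorafenib.

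**Figure D4:**
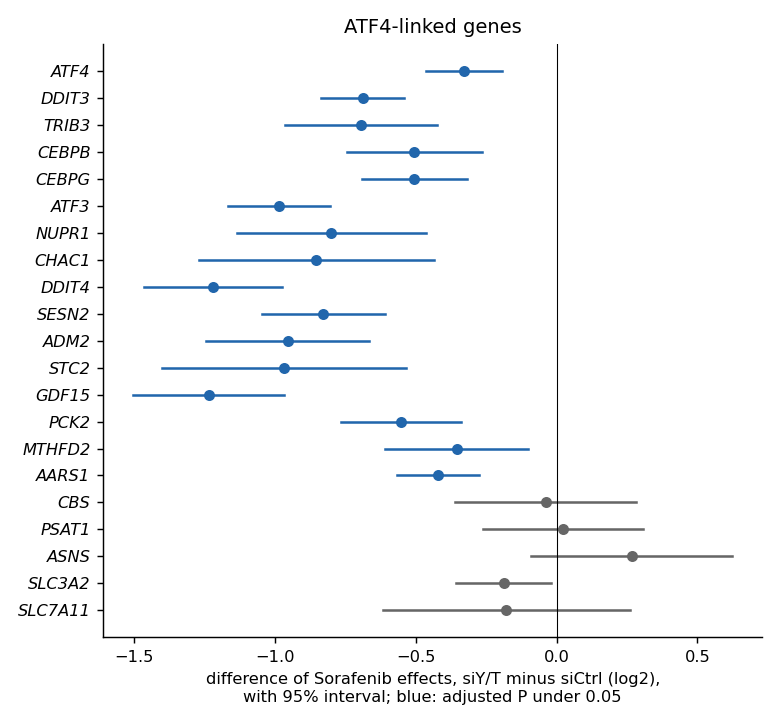
Difference of the Sorafenib effects (siY/T minus siCtrl, log2 scale) with its 95% interval for 21 ATF4-linked genes, chosen after values were seen, with blue points at an adjusted P under 0.05 and grey points above it. Genes from *ATF4* to *GDF15* lie left of 0, as do *PCK2* (-0.55), *MTHFD2* (-0.36) and *AARS1* (-0.42), whereas *CBS*, *PSAT1*, *ASNS* and *SLC7A11* have intervals that include 0. The choice leaves out genes called in either direction, such as *ATF5* (0.46), *SLC38A2* (0.42) and *SLC1A4* (-0.68).

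The supply genes downstream of ATF4 were called in both directions. Of 14 tested enzymes of amino acid synthesis 4 had a lower and 1 a higher effect, against 14.2% and 7.81% of all genes, with a median difference of -0.00066. edgeR called 3 lower and 0 higher and DESeq2 2 and 0, and limma called 1 lower and 2 higher without siY/T DMSO replicate 1 and 4 and 0 without replicate 2. Of 11 tested amino acid transporters 3 were lower and 2 higher (27.3% and 18.2%). *PCK2*, the mitochondrial PEP carboxykinase, rose from 29.0 and 27.7 to 60.6 and 65.4 CPM in siCtrl and from 23.1 and 21.2 to 35.0 and 32.1 CPM in siY/T cells (difference -0.55). *MTHFD2*, of mitochondrial one-carbon metabolism, rose by 0.79 in siCtrl cells and had an effect of 0.43 in siY/T cells (adjusted p = 0.046 by limma), a call lost in 10 of 20 alternatives (other scalings, filters, tools and thresholds, and each library left out). *GOT1* (-0.19) and *ALDH18A1* (0.18), enzymes of aspartate and proline synthesis, had small differences whose calls were lost in 11 and 15 of the 20. Among transporters, *SLC1A4*, which carries neutral amino acids, had 40.9 and 38.5 CPM with DMSO and 60.6 and 58.2 with Sorafenib in siCtrl and 40.4 and 35.4 CPM with DMSO and 37.3 and 33.3 with Sorafenib in siY/T cells, and *SLC6A8*, the creatine transporter, had effects of 0.23 and -0.66. *SLC7A1*, for cationic amino acids, was lower (-0.35) and *SLC38A2*, for small neutral ones, higher (0.42), calls lost in 9 and 7 of the 20. Of 20 cytosolic aminoacyl-tRNA synthetases, which charge tRNAs, 2 were lower and 4 higher, 2 and 6 without siY/T DMSO replicate 1, and 4 and 4 without replicate 2. *AARS1*, the alanine enzyme, rose from 472 and 459 to 871 and 873 CPM in siCtrl cells and had 436 and 408 CPM with DMSO and 614 and 569 with Sorafenib in siY/T cells (difference -0.42), whereas *RARS1* and *LARS1* had higher effects, with differences of 0.32 and 0.25, the latter call lost in 5 of 20 alternatives.

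Genes of glutathione metabolism and ferroptosis, 26 tested of 30, had 4 lower and 3 higher members (15.4% and 11.5%, against 14.2% and 7.81% of all genes) and a median difference of -0.048. Without siY/T DMSO replicate 1 they were 6 lower and 3 higher, and without replicate 2 7 and 5. *SAT1* (Entrez 6303), a polyamine acetylating enzyme linked to lipid peroxidation, was the member with the largest difference. It had 7.44 and 7.26 CPM in siCtrl DMSO, 10.0 and 9.50 in siCtrl Sorafenib, 12.9 and 11.9 in siY/T DMSO and 30.3 and 30.4 in siY/T Sorafenib cells, so that both last libraries lay far above the rest (difference 0.87, standard error 0.101, adjusted p = 1.88e-04 by limma). *TFRC*, the transferrin receptor that brings in iron, fell from 324 and 336 to 139 and 138 CPM in siCtrl and from 152 and 159.7 to 95.9 and 78.4 CPM in siY/T cells, a smaller fall without YAP/TAZ (0.41). *CDKN1A*, the cell cycle inhibitor p21, had a lower effect (-0.54), a call lost in 8 of 20 alternatives, and *GSS*, glutathione synthetase, had effects of 0.021 and -0.24. The difference was not called for *GPX4* (-0.14), *ACSL4* (0.14), *AIFM2* (-0.14) or *HMOX1* (-0.14), which were looked up after the values were seen. Of 18 tested NRF2 targets 2 were lower and 0 higher by limma (edgeR 3 and 0, DESeq2 2 and 0), among them *TKT* (-0.19), transketolase of the pentose phosphate pathway, whose call was lost in 11 of 20 alternatives. Without siY/T DMSO replicate 1 they were 3 lower and 1 higher, and without replicate 2 5 and 2.

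AP-1 and immediate early factors, the quickly induced transcription factors that bind next to TEAD at many YAP/TAZ sites, held several with a lower Sorafenib effect without YAP/TAZ. Of 14 tested, 8 were lower and 0 higher by limma, against 14.2% and 7.81% of all genes, while edgeR called 6 lower and DESeq2 5. Without siY/T DMSO replicate 1 they were 7 lower and 0 higher, and without replicate 2 11 and 0. *JUND* (Entrez 3727, chromosome 19 from 18390504 to 18392432 of GRCh37) had 39.7 and 40.6 CPM in siCtrl cells with DMSO and 58.2 and 59.0 in siCtrl Sorafenib, against 59.7 and 56.6 CPM with DMSO and 34.1 and 34.9 with Sorafenib in siY/T cells. The siCtrl libraries with the drug lay above those without and the siY/T libraries below, a difference of -1.28 (standard error 0.0719, adjusted p = 1.74e-06 by limma). *JUN* had 224 and 215 CPM with DMSO and 195 and 217 with Sorafenib in siCtrl cells, which overlapped, and fell from 152 and 141 to 79.0 and 73.8 CPM in siY/T cells. *JUNB* had effects of -0.076 and -0.74. *EGR1*, an early response gene of ERK signalling, fell to near 0 in both, from 5.20 and 5.97 to 0.202 and 0.244 CPM in siCtrl and from 35.8 and 33.0 to 0.471 and 0.748 CPM in siY/T cells. At such levels the pseudocount weighs on the difference, which was -1.91 by limma and -1.20 by edgeR on reads (adjusted p = 0.04 by edgeR).

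Several further genes of cytoskeleton, matrix and signalling had a response that passed the thresholds in siY/T cells alone. Missing the thresholds in siCtrl cells does not mean that there was no response there. Of the 1923 genes with a lower effect, Sorafenib lowered 120 (6.24%) in siY/T but not in siCtrl cells by the thresholds. Of the 1055 with a higher effect, it raised 51 (4.83%) in siY/T but not in siCtrl cells. Over all genes tested, it lowered 4.14% and raised 5.83% in siY/T cells, whatever the call in siCtrl cells. The siY/T response is part of the difference that chose these genes, so the shares carry no test. *TAGLN*, the smooth muscle protein SM22, had 20.1 and 18.8 CPM with DMSO and 21.4 and 24.7 with Sorafenib in siCtrl and fell from 20.8 and 18.9 to 8.39 and 8.95 CPM in siY/T cells. *GFPT2*, an enzyme of hexosamine synthesis, fell from 34.4 and 23.4 to 13.9 and 11.8 CPM in siY/T cells and had an effect of 0.36 in siCtrl cells. *IL11*, a cytokine of the IL-6 family, fell from 6.69 and 4.40 to 1.28 and 1.47 CPM in siY/T cells (difference -1.38), and *TIMP3*, a metalloproteinase inhibitor, had effects of 0.43 and -0.80. In the other direction, *BMP6*, a ligand of the TGF-β superfamily that controls hepcidin, had 9.16 and 9.72 CPM with DMSO and 7.56 and 8.61 with Sorafenib in siCtrl cells and rose from 7.84 and 8.72 to 14.2 and 15.8 CPM in siY/T cells. *PLAGL1*, a zinc finger growth suppressor, had effects of -0.067 and 0.85 (difference 0.92). Before the drug no siY/T effect was called for either, with values of -0.18 and -0.26.

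Part of the interferon-stimulated genes rose under Sorafenib in siCtrl cells, and the effect was lower without YAP/TAZ for many of them. Of 23 tested of 27, 11 had a lower effect and 0 a higher one by limma, against 14.2% and 7.81% of all genes. edgeR called 11 lower and 1 higher, and DESeq2 8 and 0. Sorafenib raised 8 of them in siCtrl and 2 in siY/T cells, against 12.3% and 5.83% of all genes, with median effects of 0.51 and 0.22 and a median difference of -0.31. *IFIT1*, an antiviral RNA-binding protein, rose from 2.67 and 3.15 to 13.0 and 13.0 CPM in siCtrl cells and from 8.89 and 9.59 to 15.3 and 16.7 CPM in siY/T cells (difference -1.23, standard error 0.136, adjusted p = 1.36e-04 by limma). Its siY/T DMSO libraries thus lay between the siCtrl libraries without and with the drug. *ISG15*, a ubiquitin-like modifier, had 12.8 and 13.5 CPM with DMSO and 21.1 and 23.3 with Sorafenib in siCtrl and 21.9 and 19.6 CPM with DMSO and 23.0 and 22.2 with Sorafenib in siY/T cells. *IRF9*, part of the ISGF3 complex that binds the response element, had 25.98 and 26.9 CPM with DMSO and 38.4 and 38.4 with Sorafenib in siCtrl and 58.6 and 56.1 CPM with DMSO and 53.1 and 56.7 with Sorafenib in siY/T cells, all above the siCtrl levels. *IRF7* had effects of 0.39 and -0.37, and *GBP2*, an interferon-inducible GTPase outside the list, of 1.46 and 0.13. The pair of TTTC blocks marked in the *IFIT1* promoter above was in 12 of the 17 list members with a promoter and in 3.82% of all promoters searched.

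**Figure D5:**
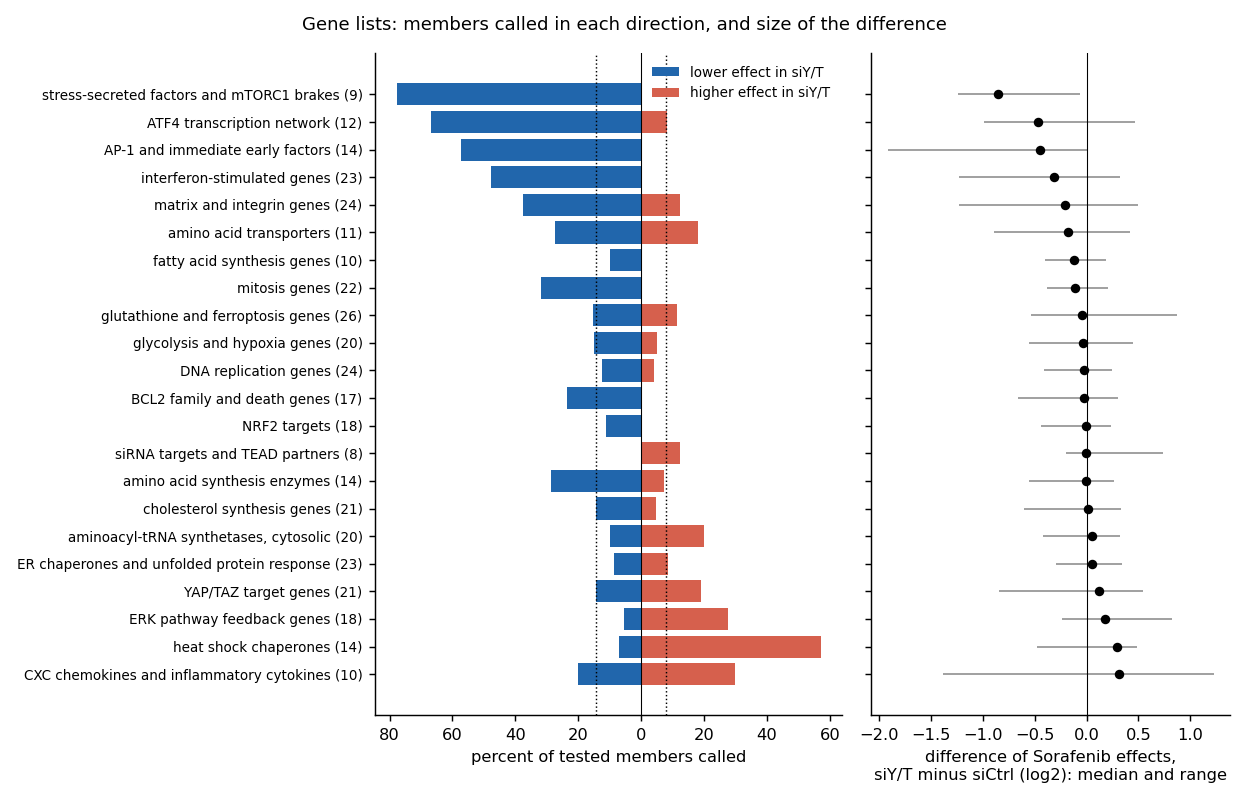
Percent of tested members with a lower (blue, left) and a higher (red, right) Sorafenib effect in siY/T cells for 22 gene lists, with the number tested in brackets and dotted lines at the 14.2% and 7.81% of all genes, and beside them the median (point) and range (line) of the difference on the log2 scale. Stress-secreted factors, the ATF4 network and AP-1 factors stand at the top with medians of -0.85, -0.47 and -0.45, and heat shock chaperones near the bottom with 8 of 14 higher.

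The 208 lowered genes with a weaker fall were led by *FGB*, the fibrinogen β chain made by hepatocytes (Entrez 2244, chromosome 4 from 155484163 to 155493959 of GRCh37). It fell from 368 and 431 to 177 and 173 CPM in siCtrl cells and had 225 and 254 CPM with DMSO and 231 and 267 with Sorafenib in siY/T cells. The siY/T libraries overlapped with and without the drug, and the difference was 1.24 (standard error 0.114, adjusted p = 4.50e-05 by limma). *CCL2*, a monocyte-attracting chemokine, fell from 187 and 183 to 70.3 and 69.8 CPM in siCtrl cells and had 111 and 94.0 CPM with DMSO and 78.4 and 80.7 with Sorafenib in siY/T cells, so that siY/T cells began below and ended slightly above siCtrl cells. *INSYN2B*, from a family of proteins of inhibitory synapses, differed in form, with like levels in DMSO (26.9 and 24.2 against 25.7 and 28.4 CPM) and 13.7 and 13.4 against 34.7 and 33.0 CPM under Sorafenib. Of the 208 genes, 181 were no longer called in siY/T cells and 27 still fell. The siY/T level was already lower in DMSO for 79 of them (background 3.61%), higher under Sorafenib for 9 (background 6.11%) and neither for 120. As with the weaker rises, the choice of the 208 genes used these levels, so the shares carry no test. *TGM2*, transglutaminase 2, had 45.7 and 44.9 CPM with DMSO and 25.4 and 27.5 with Sorafenib in siCtrl and 26.6 and 22.2 CPM with DMSO and 27.3 and 25.8 with Sorafenib in siY/T cells, where the groups with and without the drug overlapped. *BIRC3*, an inhibitor of apoptosis and NF-κB target, fell in siCtrl cells, with an effect of -0.97, against 0.049 in siY/T cells. *PLOD2*, a collagen lysyl hydroxylase, had effects of -0.59 and 0.23. The remaining leading genes were *NCL*, *NCEH1*, *PPME1* and *NUDCD1*, with differences of 0.54 to 0.77, and *TMEM156* (0.98). Among 10 tested chemokines and inflammatory cytokines, 3 were higher and 2 lower, against 7.81% and 14.2% of all genes. *CXCL5*, among the higher, had 16.2 and 13.6 CPM with DMSO and 4.56 and 5.09 with Sorafenib in siCtrl cells. In siY/T cells it had 1.68 and 1.79 CPM with DMSO and 1.41 and 1.22 with Sorafenib. *LIF* (-0.56) was among the lower.

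Feedback genes of the ERK pathway report on the kinases that Sorafenib inhibits. Sorafenib lowered 11 of 18 in siCtrl and 9 in siY/T cells, against 5.15% and 4.14% of all genes. Without YAP/TAZ 5 had a higher and 1 a lower effect, against 7.81% and 14.2% of all genes. The lower one (*IER3*, outside the naming rule) was lost by edgeR and DESeq2, which called 6 higher and 0 lower. *SPRY2*, an inhibitor of receptor tyrosine kinase signalling, fell from 13.0 and 13.6 to 4.64 and 4.54 CPM in siCtrl and from 21.0 and 19.0 to 13.7 and 12.2 CPM in siY/T cells, which were higher throughout (difference 0.83, adjusted p = 3.03e-04 by limma). *ETV5*, an ETS factor downstream of ERK, fell in both, with effects of -1.65 and -1.17. *CCND1*, cyclin D1, fell from 316 and 302 to 121 and 127 CPM in siCtrl and from 357 and 311 to 217 and 180.3 CPM in siY/T cells. *EPHA2*, an ephrin receptor, had effects of -0.34 and 0.10. For *DUSP6* the difference was -0.11 and for *SPRY4* 0.053, not called for either, and both fell by over 1 log2 unit in siCtrl and siY/T cells.

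Heat shock chaperones had mostly higher Sorafenib effects without YAP/TAZ. Of 14 tested, 8 had a higher effect and 1 a lower one (background 7.81% and 14.2%), with a median difference of 0.29. Sorafenib lowered 4 of the 14 in siCtrl and 0 in siY/T cells by the thresholds, against 5.15% and 4.14% of all genes. *DNAJA1*, an HSP40 co-chaperone, fell from 233 and 239.9 to 133 and 127 CPM in siCtrl cells and had 182 and 183 CPM with DMSO and 135 and 139 with Sorafenib in siY/T cells. *HSPA4* (0.42), an HSP70-like exchange factor, and *HSPD1* (0.32), the mitochondrial HSP60, went the same way, with siY/T minus siCtrl in DMSO at -0.45 and -0.73. The small heat shock protein *HSPB1* was the exception (-0.47). Chaperones of the endoplasmic reticulum were called in both directions, with 2 lower and 2 higher of 23 by limma and 1 and 3 by edgeR and by DESeq2, and 3 and 5 without siY/T DMSO replicate 2. The calls of *CRELD2* (-0.29), *PDIA4* (-0.18), *DNAJB11* (0.22) and *CANX* (0.22) were lost in 6, 12, 8 and 8 of 20 alternatives.

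The direct transcriptional targets of YAP/TAZ and TEAD were called in both directions. Of 21 tested, 3 were lower and 4 higher (14.3% and 19.0%, against 14.2% and 7.81% of all genes), with a median of 0.12. Without siY/T DMSO replicate 1 they were 3 lower and 4 higher, and without replicate 2 4 and 7. *CCN2*, a matricellular protein and the classical target, whose promoter with a pair of TEAD cores is shown above, fell under Sorafenib from 33.7 and 32.5 to 11.2 and 12.2 CPM in siCtrl and from 7.47 and 7.85 to 3.68 and 3.88 CPM in siY/T cells. The fall of -1.46 against -0.93 was smaller without YAP/TAZ (adjusted p = 0.0075 by limma). *AMOTL2* (0.30) and *CRIM1* (0.30) had higher effects, the call of the former lost in 5 of 20 alternatives, with siY/T minus siCtrl in DMSO at -0.95 and -0.50, and *F3*, tissue factor, fell from 8.13 and 8.84 to 3.89 and 2.83 CPM in siY/T cells and had an effect of -0.39 in siCtrl cells. For *CCN1* the difference of 0.12 was not called. Among the TEAD factors and their partners only *VGLL3*, a TEAD co-factor, was called (0.73).

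Most growth genes fell with Sorafenib in both. Of all genes, Sorafenib lowered 5.15% in siCtrl and 4.14% in siY/T cells. The effect was lower without YAP/TAZ for 14.2% and higher for 7.81% of all genes. The share of lower members was near this for DNA replication (12.5%) and cholesterol synthesis genes (14.3%). Of 24 DNA replication genes Sorafenib lowered 21 in siCtrl and 23 in siY/T cells, with median effects of -0.89 and -0.82, and the effect was lower without YAP/TAZ for 3, among them *TK1* (-0.41) and *CDT1* (-0.30), and higher for 1 (*PCNA* 0.18, a call lost in 10 of 20 alternatives). Of 22 mitosis genes it lowered 15 and 19, with median effects of -0.66 and -0.72, and 7 had a lower effect, none by more than 0.38, with *KIF20A*, *CENPA*, *AURKB* and *UBE2C* first among them. That count moved with the siY/T DMSO libraries, to 12 lower and 0 higher without replicate 1 and to 8 lower and 5 higher without replicate 2. Of 21 cholesterol synthesis genes 13 fell in siCtrl and 12 in siY/T cells, and 3 had a lower effect. Among these were *SREBF2* (-0.40), the factor that raises the pathway, and *LSS* (-0.30), lanosterol synthase, while *HMGCS1* (0.28), an early enzyme, was higher, a call lost in 8 of 20 alternatives. Of 10 fatty acid synthesis genes only *SREBF1* was called (-0.40) by limma, whereas edgeR and DESeq2 called 2 lower and limma 4 lower without siY/T DMSO replicate 1.

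The Sorafenib response of siY/T cells was last set against that of siATF4 cells, a comparison that uses no siCtrl library. The responses differed for 4640 genes (34.3% of those tested), lower with siY/T for 2517 (18.6%) and higher for 2123 (15.7%). Of the 775 genes with a weaker rise, 201 had a lower response with siY/T than with siATF4, 136 a higher one and 438 were not called. The siY/T libraries that chose the 775 genes also enter this comparison. These counts are therefore partly set by the choice and carry no test. The same holds for genes named for their siY/T difference, such as *CNN1*, *FLT4* and *TAGLN*. Both ways were seen among the genes above. The response of *DDIT4* was higher with siY/T by 1.03, that of *SESN2* by 1.06, of *CHAC1* by 1.04, of *DDIT3* by 1.02 and of *SLC7A11* by 1.08. The responses of *CNN1* (-1.59), *FLT4* (-1.08), *TAGLN* (-1.67) and *JUN* (-0.68) were lower with siY/T. *CEBPG* (0.14), *AARS1* (0.11) and *SLC1A4* (-0.11) were among the genes for which no difference between the knockdowns was called.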

How the data were processed

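RNA-seq of HLE cells was held for 12 libraries (stranded poly(A) mRNA kit per the labels), 2 in each of 6 groups, whereas the paper states biological triplicates. The authors aligned single-end reads to hg19 with STAR, per the submitters' processing notes, kept unique hits and used QuasR to count them over RefSeq mRNA exons. They deposited CPM per gene, reads per 1000000 on genes. Whether the counting used strand was not given in the sources used here, so overlapping antisense genes cannot be told apart. The CPM gave whole reads for 100% of values within 0.001 read. Genes at 1 CPM or more in at least 2 libraries were fitted as log2(CPM + 0.5) with limma 3.58.1 (R 4.3.3, trend) over 6 groups, and P-values were Benjamini-Hochberg adjusted over 13515 genes. The test was tried on simulated data with known changes, 100 genes at a log2 difference of 0.6 and 100 at 1. limma recovered 88 and 99 of them and made 40 wrong calls over 13471 genes, 18 of these under 5 CPM. edgeR recovered 91 and 99 with 13 wrong calls, and DESeq2 86 and 98 with 15. In this simulation the limma calls thus held more wrong ones than those of the other tools. It changed only these genes and gave all groups the same spread per gene, unlike the siY/T DMSO pair here. Its counts of wrong calls therefore cannot be carried over to these data. Fold changes of low genes are understated on this scale. All 95% intervals cover the spread between libraries. Of 26258 identifiers, 147 had no gene symbol.

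The members and the gene lists were chosen with earlier results of these data known. Named genes were *YAP1*, *WWTR1*, *ATF4*, *SLC7A11* and *CHAC1*, the 12 most negative and 12 most positive called differences at a mean of at least 5 CPM with 1 sign in all 16 library combinations, up to 4 called members of each list by P, the 8 smallest P of weaker rises and of weaker falls at that mean, and up to 6 with opposite called responses. Alternatives were pseudocounts of 0.1 and 1, no filter, a 5 CPM filter, TMM and quantile scaling, the replicate block, DESeq2 1.42.0 or edgeR 4.0.16 on recovered reads, a fit of the compared groups alone, thresholds with 0.58, and each library left out. The recounts of gene lists and of the forms of a weaker rise under these settings were added after seeing the data. Gene positions are from GENCODE on GRCh37. Some results are not reported here.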

Additional observations from a re-analysis of the deposited data

Results flagged for a closer look

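*CNN1* stood out because Sorafenib moved it in opposite directions in siCtrl and siY/T cells, with a difference of the effects of -1.78 (adjusted p = 1.74e-06 by limma). For 4 named genes the Sorafenib effect was called different from that of siCtrl cells in opposite directions with siY/T and with siATF4, each by at least 0.58. Both differences share the siCtrl libraries, and the responses with siY/T and siATF4 were also set against each other without them. In that comparison siY/T minus siATF4 was -1.97 for *OLFML2A* (adjusted p = 2.03e-07 by limma), 1.68 for *BMP6* (adjusted p = 1.01e-06 by limma), 1.67 for *TMEM156* (adjusted p = 1.57e-06 by limma) and 2.68 for *SAT1* (adjusted p = 1.73e-08 by limma). The siY/T and siATF4 libraries that picked these genes also form this comparison. A large difference was thus largely set by the choice, and the p-values are no independent test.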

How the results depend on the processing

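Under the other settings no named gene changed sign of a call, and 85 of the 106 called named genes kept their call in all 18 fits while 21 lost it in at least one. With only the groups compared, 1557 genes had a lower and 652 a higher effect, with 699 weaker rises, 157 weaker falls and 3819 differences from siATF4. A required difference of 0.58 gave 559 lower and 111 higher genes, 391 weaker rises, 38 weaker falls and 1396 differences from siATF4 at an adjusted P under 0.05, and 591, 124, 409, 39 and 1421 at an unadjusted P, since it demands a larger change. Leaving out 1 library in turn gave 1135 to 2405 lower genes, 446 to 2170 higher genes, 535 to 816 weaker rises, 120 to 254 weaker falls and 3500 to 5617 differences from siATF4. The cause of the other shifts was not tested. Deviations of same-numbered libraries correlated at -0.28 to 0.19 between groups, at 0.10 to 0.16 among the Sorafenib groups and at 0.19 between siCtrl and siY/T with DMSO, but not over 0.1 in every pair, so the replicate numbers were not taken as pairs. With the replicate number as a block the genes were 1833 lower and 981 higher, with 746 weaker rises, 203 weaker falls and 4503 differences from siATF4, and the calls of *ALDH18A1* and *SLC7A1* were lost. DESeq2 gave 1416 lower and 1149 higher genes and quantile normalization 1639 and 1179. With 2 libraries a group, each p rests on the spread shared over 6 residual degrees of freedom and the fit's moderation, and a left-out library leaves a lone sample assumed to vary like the others.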

Other observations

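Matrix and integrin genes, 24 tested of 26, had a median difference of -0.21. By limma 9 had a lower and 3 a higher Sorafenib effect without YAP/TAZ (37.5% and 12.5%, against 14.2% and 7.81% of all genes). Without siY/T DMSO replicate 1 they were 12 and 4, and without replicate 2 11 and 2. Lower were *PLAU* (-0.73), the urokinase, and *FN1* (-0.59), fibronectin. Higher were *COL4A2* (0.50) and *COL4A1* (0.28), chains of basement membrane collagen, and *COL12A1* (0.47).

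Of 17 tested BCL2 family and death genes 4 were lower and 0 higher by limma, against 14.2% and 7.81% of all genes. They were *BBC3* (-0.66) and *BMF* (-0.63), BH3-only genes, *PMAIP1* (-0.49), which encodes NOXA, and *TNFRSF10B* (-0.30), the TRAIL receptor DR5. The calls of *BMF* and *PMAIP1* were lost in 8 and 7 of 20 alternatives. Sorafenib raised 3 genes of the list in siCtrl and 0 in siY/T cells, against 12.3% and 5.83% of all genes.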
